A study of Drosophila melanogaster with 12 samples.

Results

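The comparison described here is the change in transcript abundance after 12 h of high sugar feeding in mid-L3 larvae of Drosophila melanogaster, larvae in the middle of the last larval instar that were still eating. It took the 3 arrays of mid-L3 larvae moved to high sugar food and the 3 arrays of mid-L3 larvae moved to fresh control food, 6 of the 12 arrays of the series. All larvae were whole males of the wild-type strain Canton-S, reared at 25 °C on a semi-defined food in which sucrose stood in for glucose. High sugar food held 1 M sucrose and control food held 0.15 M. Both mid-L3 groups had eaten control food from hatching to the early last instar, so they differed by diet over their last 12 h. The other 6 arrays, 3 per diet, came from wandering larvae that had eaten their diet since hatching and had left the food. They enter below at the end. The replicates are labelled biological replicates. Whether an array held one larva or a pool is not given in the sources used here.

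A larva of this age spends its time feeding. Its midgut cuts dietary sucrose and protein and takes up the products, and its fat body, the organ that combines the work of liver and adipose tissue, turns them into glycogen, triglyceride and the blood sugar trehalose. Sugar is sensed in part through the transcription factor Mondo, and insulin-like peptides, TOR kinase and several hormones report on sugar and amino acids.

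The values are Affymetrix intensities, which have no counts behind them, and precision is limited by having 3 arrays per group. Array medians lay at 65.7 to 65.9 in high sugar larvae and 63.2 to 64.3 in control larvae. Across probe sets, arrays of one diet correlated with Spearman's rho of 0.966 to 0.980 and arrays of different diets with 0.962 to 0.968. The median SD between arrays of one diet, on the log2 scale, was 0.104 on high sugar food and 0.112 on control food. The label of whole larvae was checked against tissue markers. No list for a female tissue was used, so the check could not tell males from a mix of sexes. Lists for the fat body, midgut, muscle, nervous system, blood cells, Malpighian tubule (the insect kidney), trachea and salivary gland were all measured in both groups, and the testis tubulin betaTub85D averaged 475 in high sugar larvae and 346 in control larvae. Their summed intensities differed most in the salivary gland, with 16505 to 18356 in high sugar larvae against 7703 to 9398 in control larvae. Midgut markers summed to 67778 to 71593 in high sugar larvae against 57965 to 61078 in control larvae, and tracheal markers to 13200 to 13591 in high sugar larvae against 15896 to 16922 in control larvae. Testis and dosage compensation markers summed to 2242 to 2463 in high sugar larvae against 1688 to 1938 in control larvae. Sums were lower without overlap for the Malpighian tubule (10147 to 10594 in high sugar larvae, against 11615 to 12173 in control larvae), muscle (82639 to 83655 in high sugar larvae, against 86224 to 90726 in control larvae) and blood cells (22516 to 23171 in high sugar larvae, against 24177 to 24688 in control larvae). The nervous system and fat body sums overlapped, those of the fat body at 34164 to 41250 in high sugar larvae and 39019 to 42031 in control larvae. In whole animals, fewer cells of a type and less RNA per cell cannot be told apart.

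A single array stood apart in one group of genes. Control array 1 was the highest of the 6 arrays for 10 of 11 tested antimicrobial peptide and Bomanin genes, and in 7 of them it was over 2 times every other array. Def, the peptide defensin, had 57.4, 8.29 and 10.6 in high sugar larvae, against 1030, 16.6 and 42.6 in control larvae. PGRP-SB1, a peptidoglycan recognition protein, had 103, 121 and 129 in high sugar larvae, against 2532, 166 and 420 in control larvae. Its adjusted p was 0.0896, and 0.0139 without control array 2, a fit that kept control array 1. Without control array 1 it did not pass. Across all alternatives tried its change lay between -2.985 and -1.093, and its adjusted p reached 0.249. Of the 11 genes, 0 passed by limma with all arrays, 0 had an unadjusted p under 0.05, and 2 were higher without control array 1.

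Of 8387 genes tested, 1844 passed, with an adjusted p under 0.05 (22.0%). Of these, 1002 rose (11.9% of tested genes) and 842 fell (10.0%). Most changes were small. The median size of a called change was 0.47 on the log2 scale, where 1 is a doubling, and 1206 of the called genes changed by less than 1.5-fold. At least 2-fold changes were found in 127 genes that rose and 142 that fell, and at least 4-fold changes in 27 and 33. The median change of all tested genes was 0.01, and 51.1% of them had a positive change. The 3 high sugar arrays did not overlap the 3 control arrays in 3343 genes (39.9%).

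The count of called genes was lower with any one of the 6 arrays left out, at 1180 to 1762, and moved by over 1.5 times without control array 3 (1180) or high sugar array 3 (1181). Of the calls, 54.3% were higher, and 39.6% with arrays centred on their medians instead of quantile normalized. Median centring moved the median of all genes to -0.04.

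**Figure D1:**
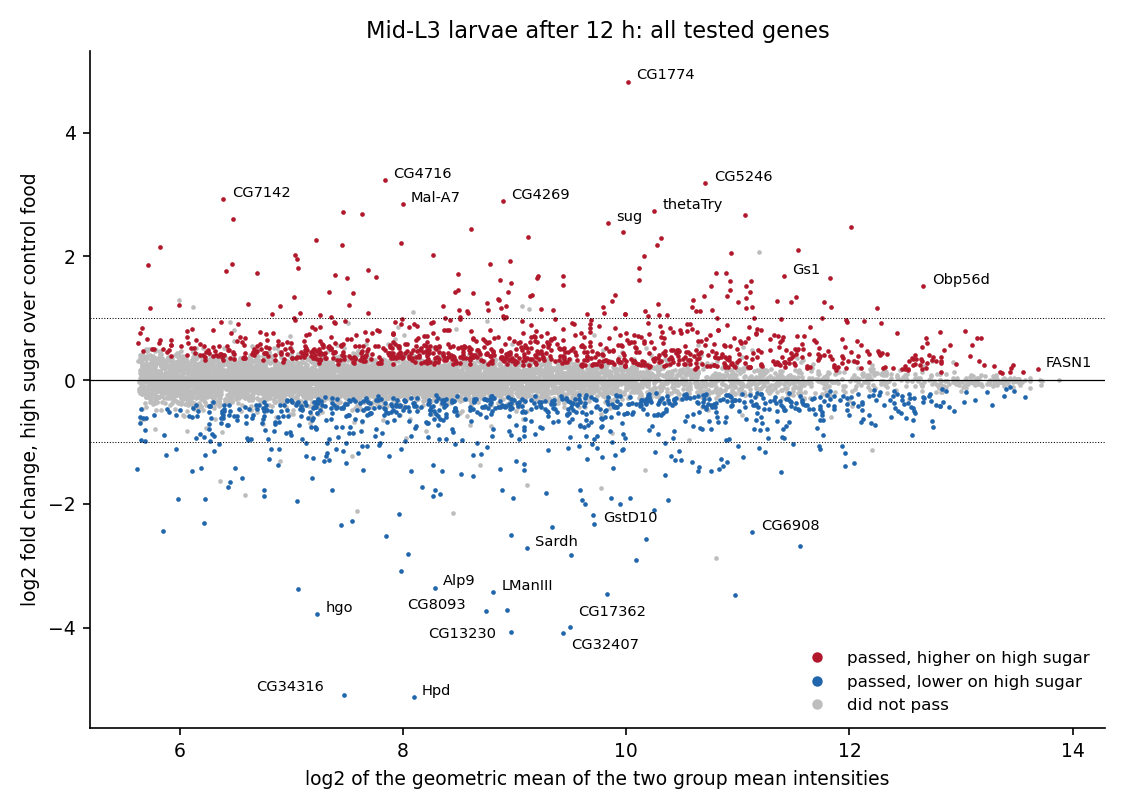
Change of all 8387 tested genes. The vertical axis is the log2 fold change of high sugar over control larvae and the horizontal axis the log2 of the geometric mean of the group mean intensities. Red points passed and were higher on high sugar food (1002), blue points passed and were lower (842), grey points did not pass, and dotted lines mark a 2-fold change. The far ends are held by CG1774 above and by Hpd and CG34316 below, and the brightest genes on the right stay close to 0.

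The largest increase was in CG1774 (chromosome arm 3R). It had 5430, 5581 and 5716 in high sugar larvae, against 182, 242 and 154 in control larvae. The groups were far apart and the high sugar arrays lay within a narrow band. The log2 change was 4.83 ± 0.14 (SE), 28.4-fold, with adjusted p = 1.02e-06. CG4716 followed, with 688, 857 and 618 in high sugar larvae against 127, 35.7 and 54.5 in control larvae, a log2 change of 3.24 ± 0.32 (adjusted p = 0.000222).

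Several of the other large increases encode digestive enzymes or enzymes of that kind. CG5246, a predicted serine peptidase, had 4495, 5576 and 4977 in high sugar larvae, against 653, 514 and 511 in control larvae, a log2 change of 3.18 ± 0.11 (adjusted p = 1.24e-06). CG7142, another predicted serine peptidase, had 192 to 407 in high sugar larvae, against a dim 16.8 to 33.2 in control larvae (log2 change 2.93). Mal-A7, a maltase that splits sucrose and maltose into single sugars, had 678, 716 and 779 in high sugar larvae, against 88.2, 83.2 and 99.1 in control larvae. Its groups were tight, with a log2 change of 2.85 ± 0.09 (adjusted p = 1.02e-06). The trypsin thetaTry rose by 2.74 ± 0.23 and the alkaline phosphatase Alp4 by 2.40 ± 0.12.

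CG32751, one of 3 tested genes of the vanin family, which hydrolyse pantetheine to release the precursor of coenzyme A, had 445, 566 and 470 in high sugar larvae, against 56.3, 64.8 and 68.2 in control larvae. The family was listed after its values had been seen, and all 3 members rose, by 2.72 for CG32751, 2.06 for vanin-like and 1.81 for CG32750. CG32750 and CG32751 lie next to each other on the X chromosome. The transcription factor gene sugarbabe (sug), a zinc finger gene of the sugar response, had 2028, 2316 and 2333 in high sugar larvae, against 380, 341 and 408 in control larvae. Its groups were well separated, with a log2 change of 2.55 ± 0.08 (adjusted p = 1.21e-06).

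The remaining large increases were in genes of unclear role. CG4269 rose by 2.89, CG14205 by 2.68, CG3348 by 2.48 and CG9928, which is also in the fat body marker list, by 2.45. CG3348 was near the top of the intensity range in high sugar larvae, at 8616, 9414 and 9699, against 1289, 3035 and 1205 in control larvae. For CG13946 and fs(2)ltoPP43 the spread on the high sugar arrays was wide. CG13946 had 175, 641 and 102 in high sugar larvae against 30.1, 22.5 and 25.1 in control larvae, and its adjusted p of 0.00923 became 0.054 with a robust variance prior. The probe set read for fs(2)ltoPP43 gave a log2 change of 2.68 with 329, 910 and 438 in high sugar larvae against 89.6, 46.5 and 75.7 in control larvae. The gene's other 2 probe sets gave 0.09 and 0.05, and its call was lost without each of the 3 high sugar arrays and in a fit of all 12 arrays of the series (the 12-array fit), which all read another probe set.

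The largest decrease was in Hpd (chromosome arm 3L), which encodes the dioxygenase that makes homogentisate in the breakdown of tyrosine. It had 54.7, 33.0 and 33.9 in high sugar larvae, against 1961, 1689 and 1889 in control larvae. The groups lay far apart. The log2 change was -5.12 ± 0.15, 34.9-fold, with adjusted p = 1.02e-06. hgo, whose product acts on homogentisate in the next step, had 31.8, 38.0 and 33.5 in high sugar larvae, against 715, 577 and 669 in control larvae, a log2 change of -3.79 ± 0.10.

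CG34316, of unclear role, had 17.9, 35.7 and 18.0 in high sugar larvae, against 1645, 798 and 1502 in control larvae. The high sugar values lie near the dim end of the scale, where the added constant of 13.8 makes the log2 change of -5.09 ± 0.28 smaller than the ratio of the intensities. Further genes of unclear role that were bright in control larvae were CG32407 (-4.08), CG13230 (-4.07), CG17362 (-3.98) and CG42822 (-3.37). CG32407 had 141, 200 and 140 in high sugar larvae, against 3069, 2692 and 3140 in control larvae, and its adjusted p was 1.02e-06.

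Among decreases with a known enzyme family, the log2 change was -3.73 for the predicted lipase CG8093, -3.72 for the acid sphingomyelinase-like CG15533 and -3.35 for the alkaline phosphatase Alp9. Alp9 had 96.3, 82.6 and 90.7 in high sugar larvae, against 1159, 1188 and 892 in control larvae. The lysosomal alpha-mannosidase LManIII had 68.2, 314 and 58.0 in high sugar larvae, against 1673, 1012 and 1435 in control larvae. Array 2 was the highest of its high sugar arrays and the lowest of its control arrays, yet the groups stayed apart (log2 change -3.43 ± 0.52, adjusted p = 0.00223). TwdlO, a gene of the Tweedle family of cuticle proteins, changed by -3.08 and Jig by -2.82.

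**Figure D2:**
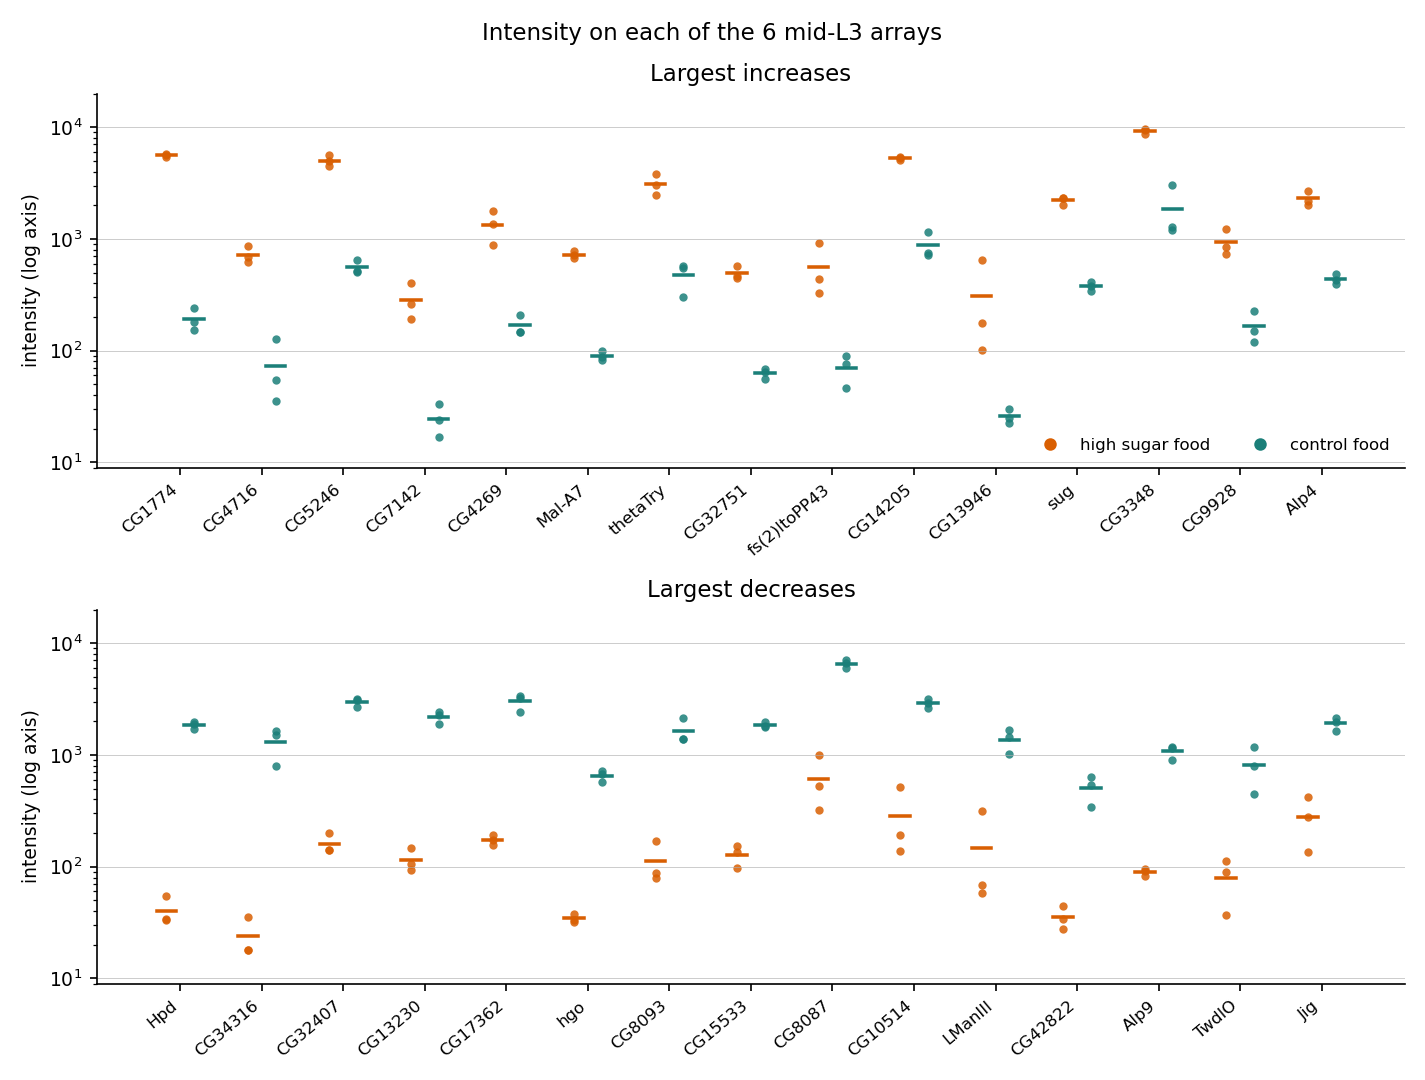
Intensity on each mid-L3 array, on a log axis, for the 15 largest increases (upper panel) and the 15 largest decreases (lower panel) among called genes whose groups did not overlap. Each point is one array, orange for high sugar food and teal for control food, and bars are group means. Wide spread on high sugar food is visible for CG13946, fs(2)ltoPP43 and LManIII, and tight groups for CG1774, Mal-A7 and Alp9.

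The enzymes that break down amino acids fell as a group. Of 30 tested members of that list, 21 fell and 2 rose (P5CDh1 and Srr). The median change was -0.82, against 0.01 over all tested genes. The fall ran down the tyrosine pathway. Tat, the tyrosine aminotransferase of the first step, had 301, 245 and 278 in high sugar larvae, against 895, 680 and 803 in control larvae (log2 change -1.44 ± 0.12). Hpd and hgo, the following steps, fell the most. Faa, which carries out the last step to fumarate and acetoacetate, had 410, 266 and 313 in high sugar larvae, against 795, 899 and 978 in control larvae (-1.36 ± 0.17). The maleylacetoacetate isomerase genes between hgo and Faa did not pass, at -0.22 for GstZ1 (adjusted p = 0.0746, and 0.037 with median centring) and -0.20 for GstZ2 (adjusted p = 0.27).

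Enzymes for other amino acids were lower too. For branched chain amino acids, the aminotransferase Bcat fell by 1.11, the dehydrogenase subunit BckdhA by 0.88, and the methylcrotonyl-CoA carboxylase subunits Mccc1 and Mccc2 by 0.95 and 0.90. For lysine, LKRSDH fell by 0.91 and the predicted glutaryl-CoA dehydrogenase CG9547 by 1.02. Threonine dehydrogenase (Tdh) fell by 1.35. The glycine cleavage gene ppl had 2603, 2647 and 2712 in high sugar larvae, against 5465, 5913 and 5864 in control larvae. The tight groups gave a change of -1.06 ± 0.05 (adjusted p = 6.34e-06). Arginase (arg) fell by 1.03 and ornithine aminotransferase (Oat) by 0.95.

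In the linked metabolism of methionine, serine, glycine and folate, 7 of 18 tested genes fell and 4 rose (median -0.11). Sardh and another of these falls are also counted in the breakdown list. The 12-array fit called 3 lower and 1 higher, and 2 were higher without control array 1 or 3 or high sugar array 3. Sarcosine dehydrogenase (Sardh), which demethylates sarcosine to glycine, had 267, 173 and 182 in high sugar larvae, against 1538, 1244 and 1624 in control larvae. The groups did not overlap, and the change was -2.72 ± 0.18 (adjusted p = 3.05e-05). Ahcy, which hydrolyses S-adenosylhomocysteine, fell by 0.56, and Cth, an enzyme of cysteine formation, by 0.94. Shmt, which links serine and glycine to folate, fell by 0.60, with an adjusted p of 0.0556 in the 12-array fit. The exception in size was aay, a phosphoserine phosphatase and the last step of serine synthesis, with 3009, 3400 and 3196 in high sugar larvae, against 1039, 1026 and 913 in control larvae. It rose by 1.73 ± 0.07 (adjusted p = 2.4e-06).

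Genes that make glutamine and proline rose, in a list of glutamine, glutamate, proline and arginine metabolism that held 5 rises and 5 falls among 17 tested genes. All 5 falls are also counted in the amino acid breakdown list above. Glutamine synthetase 1 (Gs1), which fixes ammonia onto glutamate, had 4755, 4705 and 5084 in high sugar larvae, against 1463, 1615 and 1527 in control larvae. These tight groups gave a log2 change of 1.68 ± 0.06 (adjusted p = 2.06e-06). P5CS, the first enzyme of proline synthesis from glutamate, had 2920, 3569 and 3023 in high sugar larvae, against 1229, 1114 and 1252 in control larvae (1.45 ± 0.08). The reductase P5cr-2, which completes proline, rose by 0.64, and ornithine decarboxylase 1 (Odc1), the entry to polyamines, by 1.41. The proline dehydrogenase gene slgA did not pass, at -0.08 (adjusted p = 0.587), while P5CDh1 of the breakdown list rose. The 12-array fit called 3 genes of the glutamine, glutamate, proline and arginine list lower.

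Among amino acid and peptide transporters, 6 of 20 tested genes rose and 1 fell (35% called, against 22.0% of all tested genes). NAAT1, a gut transporter of essential amino acids, had 413, 389 and 387 in high sugar larvae, against 124, 120 and 110 in control larvae, a change of 1.66 ± 0.09 with adjusted p = 8.79e-06. CG4991 rose by 0.96, CG1698 by 0.80, gb by 0.77 and CG16700 by 0.75. All 3 high sugar arrays of each of these 5 genes lay above all 3 control arrays.

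**Figure D3:**
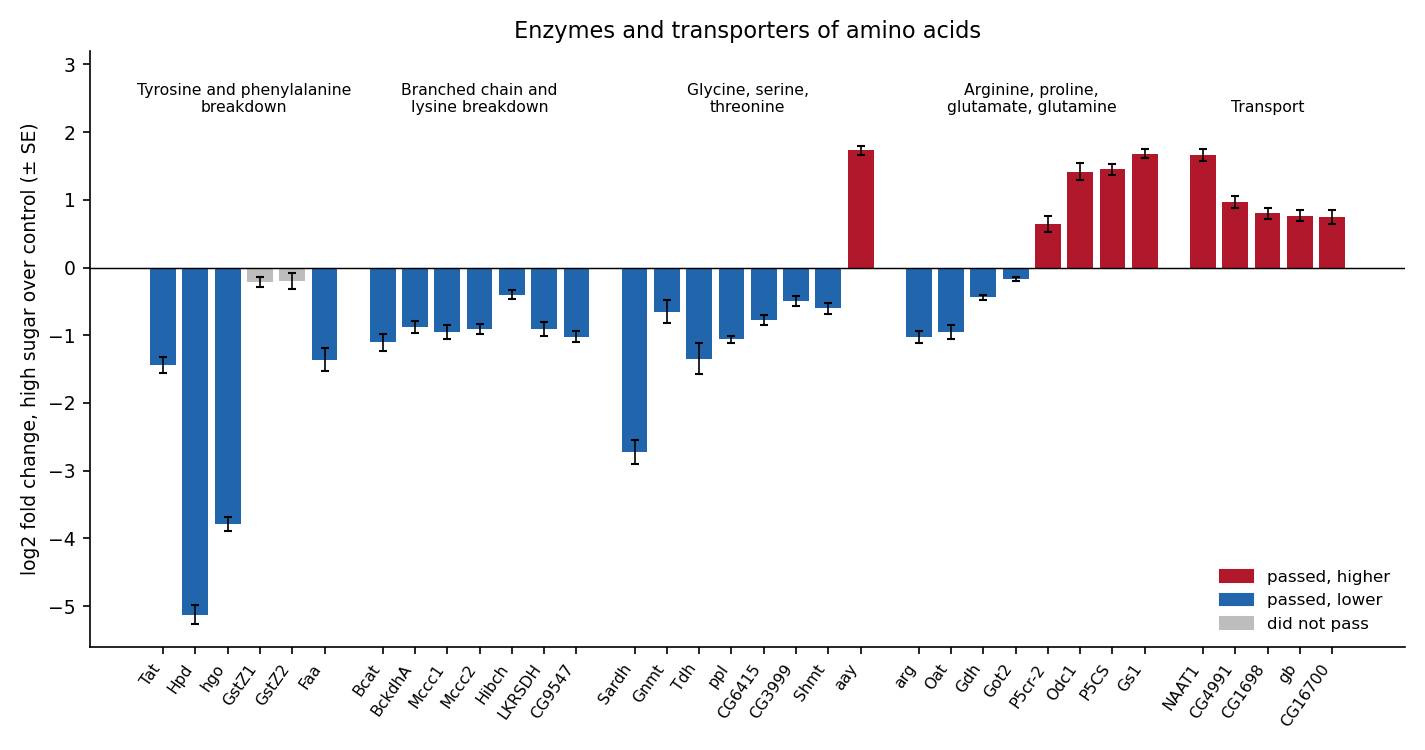
Log2 fold change, high sugar over control larvae, of enzymes and transporters of amino acids in mid-L3 larvae. Bars are the fitted changes, whiskers their SE, blue bars passed and were lower, red bars passed and were higher, and grey bars did not pass. The breakdown genes shown on the left lie below 0, led by Hpd at -5.12, and the synthesis and transport genes aay, Gs1, P5CS and NAAT1 lie above 1. P5CDh1 and Srr, the breakdown genes that rose, are not shown.

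Genes that load and use amino acids changed less. Of 29 tested aminoacyl-tRNA synthetases, 10 fell and 0 rose (median -0.24; 6 fell in the 12-array fit), with CysRS at -0.42 and the mitochondrial SerRS-m at -0.53. Mitochondrial ribosomal proteins had a median of -0.22 and 3 of 69 had a positive change, but 4 passed, all lower, and 0 to 14 did when single arrays were left out. The ribosome biogenesis list had a median of -0.23, 3 of 32 positive, 3 lower and 1 higher. Its lower count was 8 without control array 1, 1 without high sugar array 3 and 0 without any other single array, and its median lay between -0.36 and -0.09. Cytosolic ribosomal proteins stayed at a median of 0.00, with 1 of 38 lower and 0 higher. Oxidative phosphorylation had 3 of 62 higher and 1 lower (median -0.01), below the 22.0% called among all tested genes.

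The endoplasmic reticulum's folding and export machinery fell. Of 27 tested genes for the unfolded protein response and secretion, 16 fell and 1 rose, with a median of -0.31. The chaperone Gp93 had 1779, 1985 and 1793 in high sugar larvae, against 3343, 3231 and 3242 in control larvae. The change was -0.79 ± 0.06 (adjusted p = 4.22e-05). Sec61alpha, the pore through which new proteins enter the compartment, had 4942, 5320 and 5006 in high sugar larvae, against 7553, 7385 and 7338 in control larvae, and fell by 0.53. TRAM, at the same pore, fell by 0.59, the neurotrophic factor homologue Manf by 0.63 and the BiP homologue Hsc70-3 by 0.46. Herp, which acts in the disposal of misfolded proteins, was the member that rose, by 0.43. None of these changes reached 2-fold, and the count of lower members was 15 or 16 with any 1 of the 6 arrays left out.

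**Figure D4:**
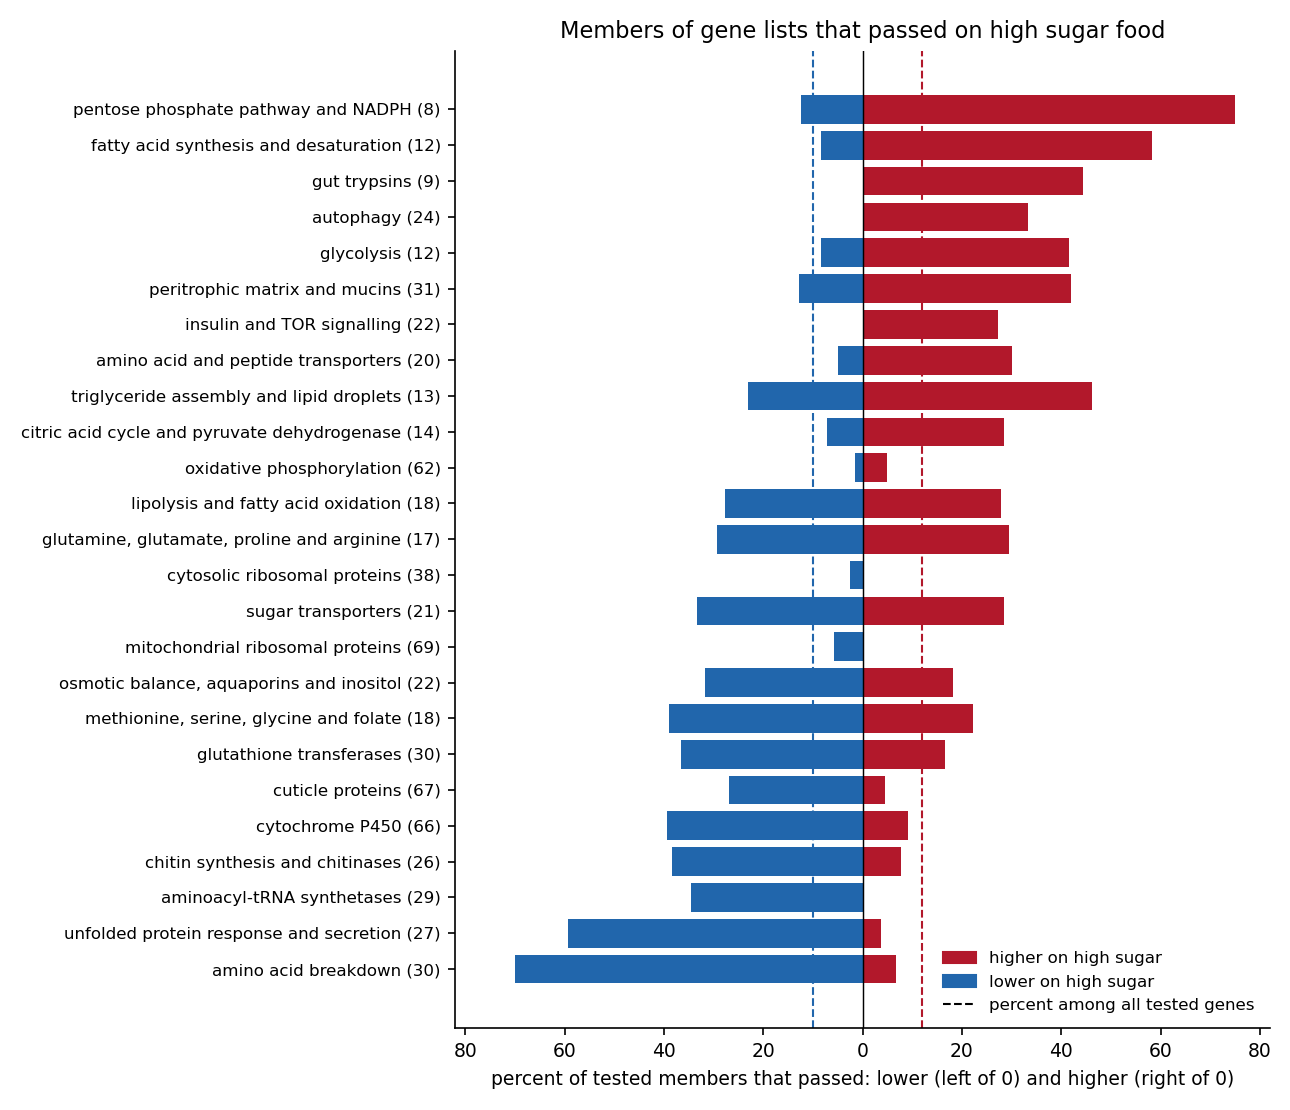
Share of tested members of 25 gene lists that passed on high sugar food, in percent, with the number tested in parentheses. Red bars to the right of 0 are members that were higher and blue bars to the left members that were lower. Dashed lines mark the share among all tested genes, 11.9% higher and 10.0% lower. The pentose phosphate and fatty acid synthesis lists lie at the top, and the unfolded protein response and amino acid breakdown lists at the bottom.

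Among sugar and nutrient responsive transcription factors, 5 of 20 tested genes rose and 2 fell (Hr38 and SREBP). The lower count was 0 to 3 with single arrays left out, 0 in the 12-array fit and 4 with median centring. Beside sug the rises were in Mondo itself (1525, 1604 and 1685 in high sugar larvae, against 1002, 1131 and 994 in control larvae, a log2 change of 0.68 ± 0.07), the Krüppel-like factor cbt (0.81) and the paired TOR-repressed factors REPTOR (0.68) and REPTOR-BP (0.76). The pentose phosphate pathway, which makes NADPH and ribose from glucose 6-phosphate, had 6 of 8 tested members higher and 1 lower in a list that also held other NADPH enzymes. The pathway's own dehydrogenases, which make its NADPH, were not among the called members. Transketolase (CG8036) rose by 0.80, ribose 5-phosphate isomerase (Rpi) by 0.72, transaldolase (Taldo) by 0.57 and Pgls by 0.53. Transaldolase had 9246, 9174 and 9212 in high sugar larvae, against 6340, 6567 and 6087 in control larvae, with little spread in either group. Malic enzyme (Men) rose by 0.40 with an adjusted p of 0.107 in the 12-array fit, and the NADP-dependent isocitrate dehydrogenase Idh fell by 0.50.

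Sugar transporters moved in both directions, with 6 of 21 tested genes higher and 7 lower. Tret1-1, a trehalose transporter, rose by 1.28, CG1213 by 1.08, CG6484 by 0.94 and CG7882 by 0.82. CG15406 had 141, 195 and 126 in high sugar larvae, against 541, 540 and 543 in control larvae. It fell by 1.72 ± 0.14 (adjusted p = 7.64e-05), nebu fell by 1.30, sut1 by 1.29 and CG33281 by 1.10. Both directions held 5 to 7 genes with any single array left out.

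The hexokinases split, as Hex-A rose by 0.55 and Hex-C fell by 1.47. Of 17 tested genes for gluconeogenesis, trehalose and glycogen, 7 rose and 3 fell, and 4 were higher in the 12-array fit. CG5171, a predicted trehalose phosphatase, had 305, 419 and 483 in high sugar larvae, against 64.0, 94.6 and 70.7 in control larvae, and its change of 2.19 ± 0.18 was the largest of the list. The glycogen branching enzyme AGBE rose by 0.95 and the trehalose synthase Tps1 by 0.82, while trehalase (Treh), which splits trehalose, fell by 0.74. In the citric acid cycle and pyruvate dehydrogenase list 4 of 14 genes rose and 1 fell (35.7% called, against 22.0% of all tested genes). The 12-array fit called 1 higher. The clearest member of the list was muc, the acetyltransferase subunit of pyruvate dehydrogenase, which rose by 0.76.

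Of 12 tested genes for fatty acid synthesis and desaturation, 7 rose and 1 fell (SREBP). In the 12-array fit 4 were higher and 0 lower. Acetyl-CoA carboxylase (ACC), the committed step, had 5337, 5063 and 5809 in high sugar larvae, against 2261, 2991 and 2136 in control larvae, a change of 1.18 ± 0.12 (adjusted p = 0.000273). The desaturase-family gene CG9743 rose by 1.26, acetyl-CoA synthetase (AcCoAS) by 0.78 and Desat1 by 0.57. FASN1, the main fatty acid synthase, was bright in both groups, with 13507, 13769 and 14322 in high sugar larvae and 12236, 12925 and 12369 in control larvae. Its change of 0.18 (adjusted p = 0.0047) lost its call in the 12-array fit, with median centring and without the intensity trend. Among fatty acid elongases 3 of 16 rose and 3 fell. With any single array left out 1 or 2 were higher and 1 to 5 lower, and the 12-array fit called 0 lower. CG18609 stood out, with 530, 550 and 627 in high sugar larvae against 119, 117 and 102 in control larvae (2.22 ± 0.09, adjusted p = 2.63e-06).

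Triglyceride genes split by step. Agpat2, which adds the second fatty acid to the glycerol backbone, had 2387, 2853 and 2644 in high sugar larvae, against 529, 664 and 558 in control larvae (2.19 ± 0.10, adjusted p = 5.93e-06). The phosphatidate phosphatase Lpin rose by 1.01, and the droplet proteins Seipin, Lsd-1 and Jabba by 0.73, 0.71 and 0.70. Dgat2, one of the enzymes for the final step, fell by 1.04. In all, 6 of 13 tested genes for triglyceride assembly and lipid droplets rose and 3 fell, with 1 lower in the 12-array fit and without control array 1 or 3 or high sugar array 2 or 3. Lipolysis and fatty acid oxidation had 5 higher and 5 lower of 18, against 3 higher and 2 lower in the 12-array fit and 3 lower without control array 3. The carnitine palmitoyltransferase whd rose by 1.60 and the triglyceride lipase bmm by 1.37, while the acyl-CoA oxidase gene Acox57D-p fell by 1.465 (adjusted p = 1.38e-05). Of the lipid carriers, 4 of 17 rose and 3 fell (1 lower in the 12-array fit), with the sterol-binding Npc2c at -2.43 and the lipoprotein assembly protein Mtp at -0.74.

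Families of gut genes changed to different degrees. Of 13 tested Jonah peptidases 2 rose and 0 fell (15.4% called, against 22.0% of all tested genes). Midgut marker sums were higher in high sugar larvae (67778 to 71593, against 57965 to 61078 in control larvae). The part of those sums in the changes of gut genes was not tested. The marker list itself holds trypsins and maltases. Several of its other members stayed level, such as the peptidase Jon65Aiv, at 11711 ± 395 in high sugar larvae and 11722 ± 228 in control larvae (SD, n = 3 each). Among genes of the peritrophic matrix, the chitin-lined sleeve that shields the gut wall, and of mucins, 13 of 31 tested members rose and 4 fell. CG7248 rose by 1.05, Muc18B by 0.90 and Muc11A by 0.86, while CG17826 fell by 0.32 and Peritrophin-A by 0.30. Muc11A had 4197, 4098 and 4641 in high sugar larvae, against 2332, 2389 and 2454 in control larvae. The 12-array fit called 9 higher and 0 lower.

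Alpha-glucosidases and amylases changed in both directions. Mal-A7 (2.85), Mal-A8 (1.42) and Mal-A1 (1.17) rose, while the amylase-related Amyrel fell by 2.10, Mal-A4 by 1.03 and the target of brain insulin, tobi, by 0.75. Amyrel had 560, 548 and 614 in high sugar larvae, against 2755, 2662 and 2300 in control larvae. The calls of Mal-A1, Mal-A4 and tobi were lost in the 12-array fit. Of 9 gut trypsins 4 rose and 0 fell, and alphaTry had 5908, 6099 and 6303 in high sugar larvae, against 1603, 1308 and 1465 in control larvae (2.11 ± 0.07). The smaller rises of epsilonTry (0.60) and betaTry (0.40) were in genes already bright on control food.

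Of the 5 lysosomal alpha-mannosidases 3 fell, 0 rose and all had negative changes. LManVI changed by -2.18, with 179, 842 and 226 in high sugar larvae and 2259, 985 and 1744 in control larvae. Its change stayed between -2.835 and -1.783 across all alternatives tried, but its call did not always hold. Its adjusted p of 0.0209 became 0.0611 or 0.0805 without control array 1 or 3, and 0.0725 or 0.0757 without high sugar array 1 or 3, and it ranged over 0.000554 to 0.112 across all alternatives tried. Alkaline phosphatases had 3 of 11 higher and 2 lower. Alp10, next to Alp9 on chromosome arm 3L, fell by 1.94, with 412, 327 and 424 in high sugar larvae against 1571, 1694 and 1440 in control larvae. Probe sequences were not analysed here, so how far probe sets for close gene copies such as trypsins and maltases read each other's transcripts was not tested.

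Falls outnumbered rises in the cytochrome P450 family, whose enzymes oxidise hormones, fatty acids and toxins. Of 66 tested cytochrome P450 genes, 26 fell and 6 rose, with a median of -0.19. Cyp4d14 had 881, 687 and 687 in high sugar larvae, against 2260, 2186 and 2318 in control larvae, and fell by 1.53 ± 0.12. The neighbours Cyp28d2 and Cyp28d1 fell by 1.23 and 1.13, and Cyp6g1, known for insecticide resistance, by 1.43. Cyp304a1 was the largest rise, at 1.38. The count of lower genes was 20 to 26 with single arrays left out, and that of higher genes fell to 2 without control array 1 or either of high sugar arrays 1 and 3, and to 3 without control array 3. In the 12-array fit it was 2.

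Of 30 glutathione transferases 11 fell and 5 rose. GstD10 had 365, 315 and 421 in high sugar larvae, against 2042, 1767 and 1962 in control larvae (-2.33 ± 0.11), and GstD4 had 350, 382 and 425 in high sugar larvae, against 1709, 1469 and 1681 in control larvae (3.99-fold lower). The groups of both genes were far apart. The lower count of this family was less stable, at 4 without control array 3, 7 without high sugar array 2 or 3, 6 in the 12-array fit, which called 2 higher, and 7 without the intensity trend. UDP-glycosyltransferases had 6 of 25 higher and 5 lower (44% called, against 22.0% of all tested genes). Their higher count was 3 without high sugar array 3 and 2 in the 12-array fit. The aldo-keto reductase CG12766 rose by 2.32 and the carbonic anhydrase CAH2 by 2.29. Xanthine dehydrogenase (ry), which makes urate from purines, fell by 1.88, catalase (Cat) by 0.64 and the peroxiredoxin Prx6c by 1.48.

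The ecdysteroid kinase-like genes, a large insect family of predicted small-molecule kinases, were listed after their values had been seen. Of 36 tested members 14 fell and 5 rose, with a median of -0.30, and 8 fell by at least 2-fold. CG10514 had 193, 520 and 139 in high sugar larvae, against 3197, 2613 and 2889 in control larvae, a change of -3.46 ± 0.38. CG6908 had 832, 1102 and 866 in high sugar larvae, against 5129, 5829 and 5199 in control larvae, a change of -2.45 ± 0.10. The groups were apart for both genes. CG11892 fell by 1.91, CG6830 by 1.83, CG10513 by 1.78 and CG6834 by 1.03, and together these 6 genes form a pair of 3-gene runs of neighbours on chromosome arm 3R. CG32195 was the member with the largest rise, at 1.68.

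In lists of body wall genes more members fell than rose, and most did not pass. Of 67 tested cuticle proteins 18 fell and 3 rose, with a median of -0.20 and 5 falls of at least 2-fold, led by TwdlO. The lower count was 11 without control array 3 and 8 in the 12-array fit. TwdlO had 90.3, 37.0 and 113 in high sugar larvae, against 444, 1182 and 788 in control larvae, so that array 2 was lowest on high sugar food and highest on control food. Of 26 genes for chitin synthesis and chitinases 10 fell and 2 rose, and 4 were lower in the 12-array fit. Tracheal markers, which hold chitin-modifying genes such as serp, were also lower in sum (13200 to 13591 in high sugar larvae, against 15896 to 16922 in control larvae). Of 4 arylalkylamine N-acetyltransferases, which acetylate amines and in insects act in cuticle hardening, AANATL3 fell by 2.37 and AANATL4 by 1.22.

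Of 10 tested salivary gland markers 3 rose, all of them new glue genes, and 1 fell. The new glue genes ng1, ng2 and ng3, transcribed in the larval salivary gland, rose by 0.97, 1.17 and 1.65. ng3 had 6470, 5817 and 6393 in high sugar larvae, against 2588, 2344 and 1432 in control larvae, and ng1 lost its call in the 12-array fit. Of the glue and Eig71E list 3 of 8 passed, and the glue gene Sgs5 did not, with 44.5, 357 and 36.2 in high sugar larvae and 30.3, 17.1 and 36.0 in control larvae.

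Signals of nutrition and growth changed in a few places. In insulin and TOR signalling 6 of 22 tested genes rose and 0 fell. That is 27.3%, against 22.0% called and 11.9% higher among all tested genes. They included ImpL2, a secreted binder of insulin-like peptides (0.71), and the kinase Pdk1 (0.53). REPTOR, REPTOR-BP and Lpin, also among the 6, are counted in other lists above as well. Among hormones and signals from gut, fat body and brain 3 of 21 rose and 1 fell, below the 22.0% called among all tested genes. The activin-like ligand daw, which acts on the sugar response and midgut digestion, had 1278, 1715 and 1354 in high sugar larvae, against 580, 599 and 642 in control larvae (1.28 ± 0.10, adjusted p = 8.69e-05). AkhR, the receptor of the adipokinetic hormone that mobilises stores, rose by 1.16.

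Autophagy genes had 8 of 24 tested members higher, 0 lower and 21 positive, with a median of 0.19. That is 33.3% called, against 22.0% called and 11.9% higher among all tested genes. The cargo receptor ref(2)P rose by 0.84 and Atg8a by 0.43, and Atg1 did not pass, at 0.21 (adjusted p = 0.112). The higher count was 4 without control array 3 or high sugar array 3, and 5 without high sugar array 2 or with median centring. Proteasome genes showed a small shift with few calls. Of 31 tested genes 30 were positive and 4 passed, with a median of 0.15, and median centring and the 12-array fit left 0 calls. Without control array 2 there were 9, and 0 or 1 without any other single array. The DNA replication and cell cycle list had 1 call of 22, Psf2, which rose by 1.00.

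Concentrated sucrose is also an osmotic load. In osmotic balance, aquaporins and inositol 7 of 22 tested genes fell and 4 rose, with a median of 0.03. The 7 lower genes held 4 inositol monophosphatase-like genes, CG17026 (-0.84), CG17028 (-0.82), CG17027 (-0.76) and CG17029 (-0.55), together with the inositol synthase Inos (-0.47), the aquaporin Prip (-0.37, not called as the mean of its probe sets) and the potassium channel Irk2 (-0.53). CG17028 had 90.9, 79.5 and 81.1 in high sugar larvae, against 156, 157 and 160 in control larvae. The lower count was 7 or 8 with single arrays left out, while the higher count was 0 to 2 without any array other than high sugar array 1 and 0 with values as deposited or median centring.

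Metallothioneins, which bind copper and zinc, moved apart. MtnB had 631, 1164 and 726 in high sugar larvae, against 335, 139 and 217 in control larvae, and rose by 1.88. MtnC rose by 1.34 (adjusted p = 0.0243, and 0.0662 or 0.0693 without high sugar array 2 or 3), whereas MtnA fell by 0.39 and the iron carrier transferrin (Tsf1) by 0.92. Odorant-binding proteins had 4 of 18 higher and 2 lower (33.3% called, against 22.0% of all tested genes). The lower count was 4 without high sugar array 1 and 5 with median centring. Obp56d was one of the brightest genes to change, at 10084, 11289 and 11295 in high sugar larvae against 3922, 3731 and 3909 in control larvae (1.52 ± 0.05, adjusted p = 1.24e-06), and Obp99a fell by 1.28. LysS, a digestive lysozyme, fell by 0.89.

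Some genes with large changes lay side by side. Of the 269 genes that changed at least 2-fold, 41 (15.2%) sat in 19 runs of neighbouring protein-coding genes that changed in the same direction, 8 runs of higher and 11 of lower genes. The longest runs held 3 genes. One was CG13319, sug and CG17019, with changes of 1.13, 2.55 and 1.15, and the others were the 2 ecdysteroid kinase-like runs. CG13319 had 969, 963 and 916 in high sugar larvae, against 454, 412 and 466 in control larvae, and CG17019 had 817, 939 and 910 in high sugar larvae, against 419, 446 and 369 in control larvae. Among pairs were Mal-A7 with Mal-A8, thetaTry with alphaTry, CG4716 with CG10799, and CG13946 with CG13947. Some pairs are copies of one ancestral gene, and how many neighbours would change together by position alone was not tested.

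The effect of the diet was then set against that in wandering larvae in a fit of all 12 arrays, whose mid-L3 changes are close to but not the same as those above. The mid-L3 and wandering effects differed in 650 of 8387 genes (7.75%), and in 429 without mid-L3 control array 3, 428 without mid-L3 high sugar array 3 and 1274 without wandering high sugar array 2. Of the 269 genes that changed at least 2-fold in mid-L3 larvae, 254 could be compared on the same probe set. The difference between the stages passed for 163 of them. In wandering larvae 75 of the 254 were called in the same direction, 8 in the opposite one and 171 were not called. A missing call does not show that a gene did not change. Taken the other way, 140 genes changed at least 2-fold in wandering larvae. Of these, 84 were called in the same direction in mid-L3 larvae and 15 in the opposite one.

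Most of the large mid-L3 changes were smaller in wandering larvae. These genes, like those with large mid-L3 changes compared just above, were chosen for their size on mid-L3 arrays that also enter the difference. That choice by itself favours larger changes in mid-L3 larvae. Of the largest decreases, 13 could be compared and 10 differed between the stages, all larger in mid-L3 larvae. CG13230 changed by -3.86 ± 0.19 in mid-L3 and 0.01 ± 0.19 in wandering larvae, CG17362 by -3.75 in mid-L3 and 0.00 in wandering larvae, and Hpd by -5.06 in mid-L3 and -0.82 in wandering larvae. Of the largest increases 14 could be compared and 9 differed, 8 of them larger in mid-L3 larvae. CG5246 changed by 2.92 in mid-L3 and -0.48 in wandering larvae, a value that did not pass there (adjusted p = 0.412). CG3348 was the increase that was larger in wandering larvae, at 2.40 in mid-L3 and 4.45 in wandering larvae.

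The difference between the stages did not pass for sug (2.35 in mid-L3 and 2.19 in wandering larvae), CG8093 (-3.56 in mid-L3 and -3.40 in wandering larvae), CG14205 (2.45 in mid-L3 and 3.33 in wandering larvae) or Jig (-2.64 in mid-L3 and -3.97 in wandering larvae). A p that misses the threshold does not show that these effects are equal. The mid-L3 rise of Agpat2 was 2.03 in this fit, against -0.16 in wandering larvae, and that of Gs1 was 1.53, against -0.03 in wandering larvae. Both differences passed. The levels behind these effects also differ by stage. In wandering larvae Hpd averaged 19.3 ± 4.71 on high sugar food and 47.4 ± 6.43 on control food (SD, n = 3 each), both far below the 1846 ± 141 of mid-L3 control larvae. From so low a level on control food, a fall of the mid-L3 size could not be read in wandering larvae.

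**Figure D5:**
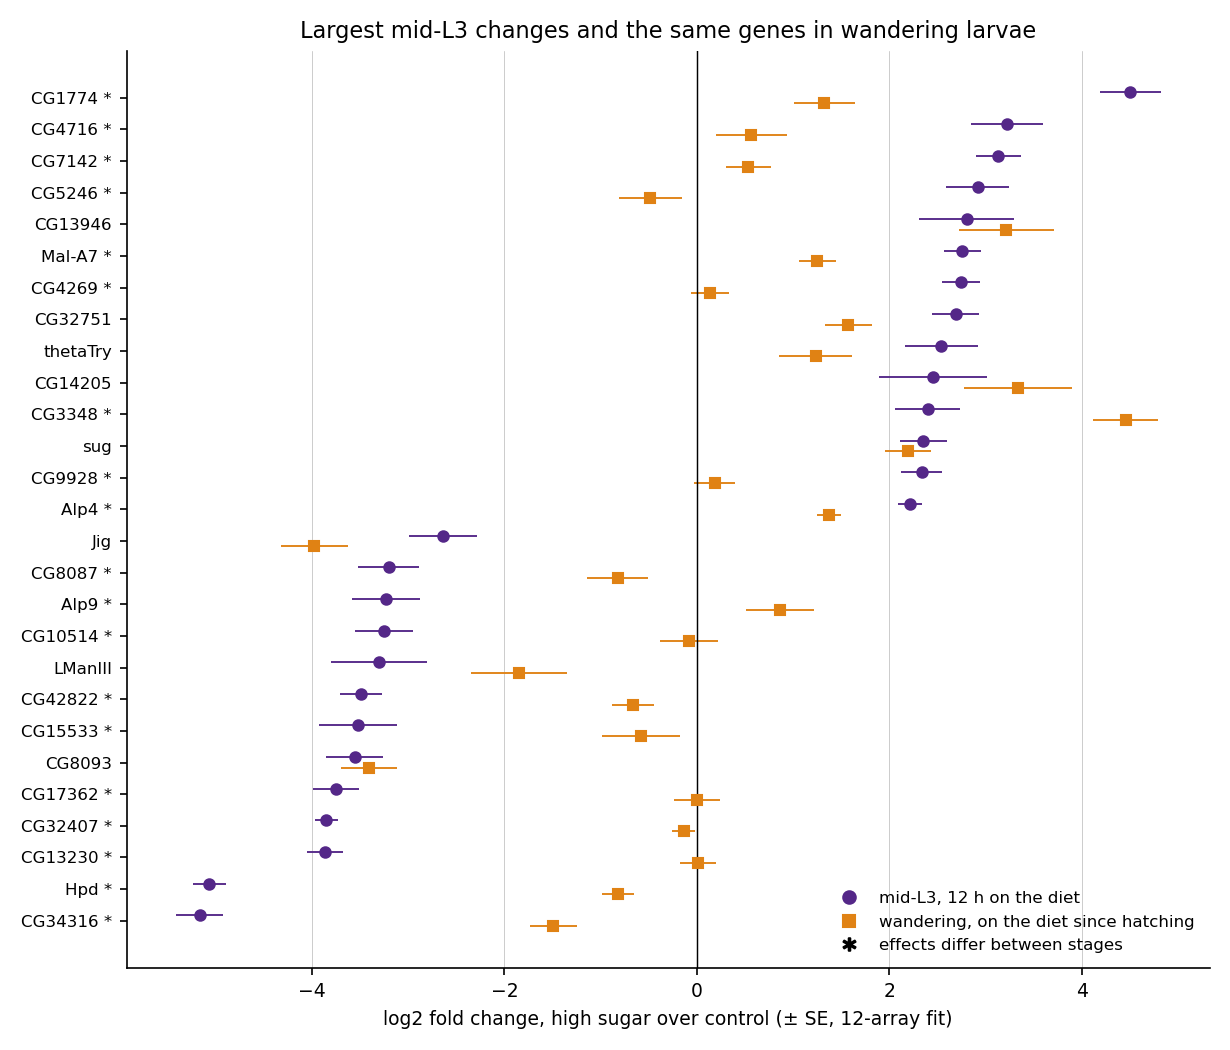
Log2 fold change, high sugar over control food, of the largest mid-L3 changes that could be read on the same probe set, from the fit of all 12 arrays. Purple circles are mid-L3 larvae after 12 h on the diet and orange squares wandering larvae on the diet since hatching, lines are SE, and an asterisk marks a difference between the stages that passed. The circles of Hpd and CG34316 lie near -5 and their squares at -0.82 and -1.49, while circle and square nearly coincide for sug and CG8093.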

How the data were processed

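Whole larvae were measured on Affymetrix arrays from 2 ug of total RNA each, per the labels. The values deposited by the authors are 1 linear intensity per probe set and array. How probes were summarized and normalized, and with which software, is not given in the sources used here.

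Of the 18952 probe sets, 183 were controls and were not used. The platform annotation gave 1 symbol for 13647 and several for 402, and 4720 were not listed. Each gene was read by its brightest probe set on average, and of 11982 genes the 8387 above the 30th percentile of mean brightness were tested. Intensities printed are as deposited. For the test, log2 of the intensity plus 13.8 (the 20th percentile) was quantile normalized over the 6 arrays and fitted with limma 3.58.1 in R 4.3.3, with an intensity trend. Benjamini-Hochberg adjustment covered all tested genes, with a threshold of 0.05, and every adjusted p in the text is from limma. Fold changes are on this log2 scale, which understates those of dim genes. The stages were compared with an interaction term over all 12 arrays (constant 12.8), and 36 genes that were read there by another probe set were left out of that comparison. Plots used Python 3.11.15 and matplotlib 3.10.9.

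The members, the 58 gene lists and the 9 marker lists were chosen with earlier results of these data known. A few misassigned members were taken out of the amino acid breakdown and proteasome lists after values had been seen. Lists are described by counts and medians, with no test. Genes named are the 15 largest increases and decreases among called genes without overlap, at most 4 members of each list, those lowest in adjusted p, fixed genes, and other list members and neighbours named after their values were seen. Neighbouring genes come from NCBI RefSeq's gene table (Release 6 plus ISO1 MT). Because the replicates come from labels that do not say how larvae were grown or pooled, p-values measure the spread between these samples.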

Additional observations from a re-analysis of the deposited data

Results flagged for a closer look

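For 179 of the genes named above the stages were compared. Of these, 171 could be read by the same probe set in the 12-array fit, and the diet effect of 99 differed between the stages with an adjusted p under 0.05 (limma). Those whose effects also differed by at least 4-fold, or 2 on the log2 scale, are given here as the mid-L3 effect minus the wandering effect. The genes were mostly named for their mid-L3 changes, a choice that favours larger mid-L3 effects. A gene dim in wandering control larvae, as Hpd was, could not show there a fall of the mid-L3 size. How far such levels set the differences below was not tested. Among genes lower on high sugar food in mid-L3 larvae, the difference was -4.24 for Hpd, -4.09 for Alp9, -3.88 for CG13230, -3.75 for CG17362, -3.71 for CG32407, -3.68 for CG34316, -3.17 for CG10514, -2.94 for CG15533 and -2.82 for CG42822. It was -2.50 for Alp10, -2.23 for CG10513 and for GstD10, -2.19 for Cyp4d14, -2.18 for GstD4 and -2.01 for Hex-C. Of these 15 genes the wandering effect itself passed for Hpd (-0.82) and CG34316 (-1.49), and it was positive without passing for Alp9 (0.86, adjusted p = 0.164), Cyp4d14 (0.78, adjusted p = 0.0635), Alp10 (0.70, adjusted p = 0.182), Hex-C (0.59), CG10513 (0.58), GstD4 (0.33), GstD10 (0.08), CG13230 (0.01) and CG17362 (0.00).

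Among genes higher in mid-L3 larvae, the difference was 3.40 for CG5246, 3.18 for CG1774, 2.65 for CG4716, 2.61 for CG4269, 2.60 for CG7142, 2.18 for Agpat2, 2.17 for CG12766 and 2.15 for CG9928. Of these the wandering effect passed for CG1774, which rose there too (adjusted p = 0.0265). For Cyp304a1 it was 2.30, and the wandering effect was opposite and passed, at -1.02 (adjusted p = 0.00853). In 3 genes the change was larger in wandering larvae. The difference was -2.34 for CG13947 and -2.06 for CG3348, which rose at both stages, and 2.26 for Amyrel, which fell by 4.20 in wandering larvae. The stages also differ in how long the larvae ate the diet and in whether they were feeding, so duration and stage cannot be told apart.

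Probe sets that no gene table entry names carried signal too. Of 1854 such probe sets bright enough to test, 155 were called in mid-L3 larvae, 84 higher and 71 lower, with 7 higher and 11 lower by at least 2-fold and changes between -2.22 and 1.99. They are unnamed here and enter none of the counts above.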

How the results depend on the processing

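Genes called numbered 1844 in the mid-L3 comparison (1002 higher, 842 lower), and 1180 (631 and 549) with all 12 arrays in the fit. A further condition of 2-fold left 269 (127 and 142). Leaving out 1 array at a time gave 1180 to 1762 called, 600 to 963 higher and 536 to 799 lower. The values as deposited, other added constants and filters, other rules for probe sets, array weights and other variance models kept the 3 counts within 1.5 times. Stable counts do not show that the probe sets of one gene gave the same call. With all probe sets tested singly, 2019 of 13138 were called. The called genes had 152 other, dimmer probe sets in that fit. Of these, 37 were also called, 36 in the same direction and 1 in the opposite one. In their deviations from the group means, same-numbered arrays of the diets correlated at -0.07, -0.27 and -0.04. Arrays of different number correlated at -0.16 to 0.19. Whether replicate numbers mark shared batches is not given in the sources used here. With the replicate number as a block 1268 genes were called (672 and 596). The difference of the diet effects passed for 650 genes (333 and 317), for 2209 (1206 and 1003) with array weights, and for 255 (116 and 139) with 2-fold as a further condition. Without 1 array it passed for 428 to 1274, with 213 to 699 positive and 209 to 575 negative. Of the same 179 named genes, 171 were called in mid-L3 larvae. Of those 171, 155 were called under every alternative that tested them, 16 to 19 for each, 16 lost the call under at least 1, and 0 changed sign. The number of arrays, 3 per group, limits small changes most, and those calls came and went with single arrays. A share of promoters with sequence motifs, which had been planned, was not run because no promoter sequences were used here.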
